A study of Mus musculus with 16 samples.

Results

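Ribosomal protein genes encode the proteins that, together with ribosomal RNA, build the small and the large subunit of the cytoplasmic ribosome. The genes were taken by symbol, as annotated genes named Rps or Rpl with a number, with the letters a, x or l after it where present, together with Rpsa and the stalk genes Rplp0, Rplp1 and Rplp2, and with at least 1 read in the series. The rule found 81 genes of 21627 with reads, 32 of the small and 49 of the large subunit, and uses the symbol and a single read but no difference between groups. A few genes of ribosomal proteins with other names fall outside it, among them Fau, whose protein is made as a fusion with a ubiquitin-like protein, Rack1 and Rps3a1.

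The data are PacBio Iso-seq libraries, in which full-length complementary DNA is read from end to end, from cortical and striatal tissue of R6/2 mice and non-transgenic (NT) controls. R6/2 mice, labelled B6CBA-Tg(HDexon1)62Gpb/3J, carry a transgene with exon 1 of the mutant human HTT gene and are a model of Huntington's disease. The mice were males of 3 months, and each of the 4 groups (Cortex NT, Cortex R6/2, Striatum NT and Striatum R6/2) had 4 samples. The transgene is under the human HTT promoter and is not limited to a cell type, and its own RNA was not analysed here. 4 striatal samples (NT 1, NT 2, R6/2 2 and R6/2 3) came with 2 sets of counts. Their labels speak of replicates within 1 raw record without saying whether these are libraries, runs or animals. The sets were read here as 2 sequencing runs of 1 sample and summed, and the other 12 samples had 1 run. The labels do not say whether a cortical and a striatal sample of the same number came from the same mouse.

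Nearly every ribosomal protein is present as a single copy in a ribosome, and cells make these proteins in matched amounts from many genes scattered over the genome. Their messenger RNAs are short, abundant and stable, and most begin with a tract of pyrimidines, the 5′ terminal oligopyrimidine motif, through which their translation is controlled together. The mouse genome also holds many processed copies of these genes, made by reverse transcription of spliced messenger RNA, and long reads from a gene and from a near-identical copy are separated only by a few bases.

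The 81 genes lay on 19 chromosomes, and 79 of them had reads in all 16 samples. The exceptions were Rpl3l and Rpl39l, paralogues of Rpl3 and Rpl39 known from muscle and testis, with 5 reads and 1 read. Rpl39l, with its 1 read, sat just at the limit of the rule. Rps4l was the one gene annotated as a transcribed processed pseudogene in GENCODE M21, and the other 80 were protein coding. Members were short, with a median isoform length of 773 nt over members against 1936 nt over all genes with reads, and 59 of the 81 were under 1000 nt. The most reads over the 16 samples fell on Rpl4 (27541 reads), Rpl3 (21212), Rpl41 (20689) and Rplp1 (15304), and Rpl13a, Rpl13, Rpl37, Rps15 and Rpl8 were also among the most read.

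RefSeq promoter sequences (GRCm38.p6) were found for 60 of the 81 members. A C at the start base followed by at least 4 bases that are each C or T, on the strand of the gene, stood at the annotated start in 12 of these 60 (20%) and in 2.45% of 26965 other genes. Within 5 bases of the start, the same pattern began in 27 members (45%) and in 18.4% of the other genes. Windows from 12 bases before to 12 bases after the start are shown for 3 genes that return in the results on isoforms, with the matched C and the unbroken run of C or T after it in capitals where the pattern was found. Rpl5 did not hold the pattern, and neither did Rpl4, Rpl41 and Rpl13, which were looked at in the same way and are not shown.
Rpl13a, chr7:45128733-45128757, minus strand: accctgcgacaagaCCTCCTCCTTT
Rps24, chr14:24490666-24490690, plus strand: gcgctggggtcCTTCCTTgcgcgtt
Rpl5, chr5:107900516-107900540, plus strand: cacgtcgcttgcgtgctggtggtgc
The tract of Rpl13a ran to the end of its window and began 2 bases after the annotated start. In Rps24 other pyrimidines stood just before the matched C.

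Libraries held between 252885 and 1496196 reads, of which 202664 to 1349108 were counted on annotated genes, so the precision of a gene's level varies between samples with depth. The mean isoform length of other genes, weighted by reads, was 1898 to 2142 nt in the cortex. It was 2182 to 2265 nt in striatal samples of 2 runs and 1712 to 1968 nt in those of 1 run. The length of the reads themselves was not measured. Mitochondrial genes took 0.33% to 0.58% of cortical gene reads, 0.41% to 0.85% in striatal samples of 2 runs and 1.42% to 3.28% in those of 1 run. Marker genes of striatal projection neurons summed to 10097 to 13855 counts per 1000000 gene reads (CPM) in Striatum NT, against 375 to 467 CPM in Cortex NT and 1893 to 3272 CPM in Striatum R6/2, and the 4 choroid plexus markers reached 9192 CPM in 1 Striatum NT sample and 1548 CPM in 1 Cortex R6/2 sample. In tissue samples, fewer cells of a type and less RNA per cell cannot be told apart.

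Ribosomal protein genes together took 3.16% to 10.9% of gene reads, and the striatal samples divided by the number of runs. In the cortex, the share was 4.96%, 3.82%, 3.49% and 3.54% in NT 1 to 4 and 5.39%, 4.40%, 3.91% and 4.51% in R6/2 1 to 4. The cortical groups overlapped, with a mean of 3.95% ± 0.688 (SD, n = 4) in NT and 4.55% ± 0.613 in R6/2. In the striatum, NT 1 and NT 2, with 2 runs, had 3.16% and 3.58%, while NT 3 and NT 4, with 1 run, had 7.60% and 10.9%. Among striatal R6/2 samples, those of 2 runs had 3.63% and 3.19% and those of 1 run 8.71% and 9.30%. Every striatal sample of 1 run lay above every sample of 2 runs, whatever its genotype, and both genotypes were present at each number of runs. Taken singly, each run of a 2-run sample was also low, at 2.31% to 3.35% in the first run and 3.79% to 3.85% in the second.

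**Figure D1:**
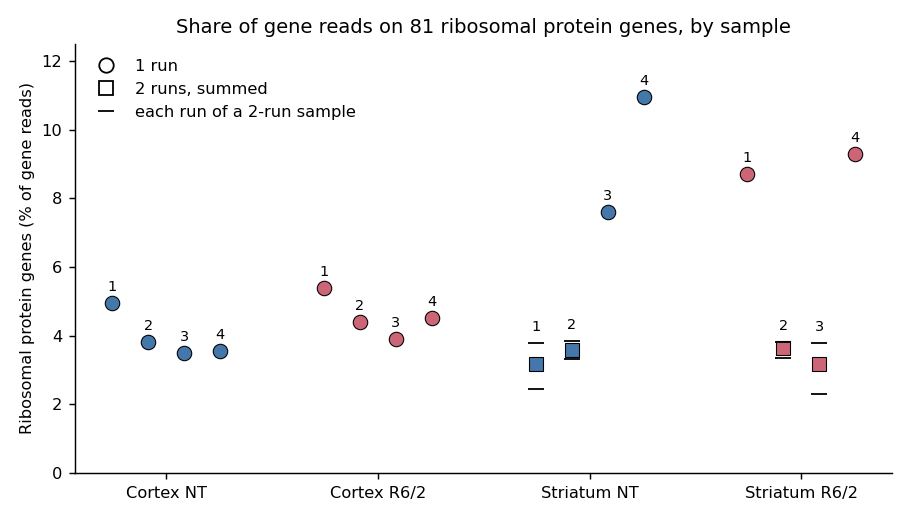
Share of gene reads on the 81 ribosomal protein genes (percent, vertical axis) in each of the 16 samples, grouped by region and genotype, with the sample number above each point. Circles are samples of 1 run, squares are 2 summed runs and dashes are the single runs of those samples. The 4 striatal circles lie between 7.60% and 10.9%, above every other sample.

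In the cortex, ribosomal protein genes were on balance slightly higher in R6/2 than in NT samples, and 1 gene passed the test. Of 78 members tested, Rpl5 was higher and none was lower at an adjusted p under 0.05 (edgeR quasi-likelihood test, Benjamini-Hochberg adjustment over 6121 genes), and 21 had an unadjusted p under 0.05. Over all genes tested, 3.22% were called, 0.457% higher and 2.76% lower. An unadjusted p under 0.05 was found in 1057 of these 6121 genes (edgeR). The log2 fold change was above 0 in 70 members, with a median of 0.34 over members and 0.02 over all genes. The median was 0.39 for the 32 small-subunit genes and 0.24 for the 46 large-subunit genes tested. Other genes under 1000 nt had a median of 0.24, and with a per-sample correction for gene length the members' median was 0.12. Among the cortical NT samples, Cortex NT 1 had the highest share of member reads and the lowest mean isoform length of other genes. Without it 18 members were called higher and none lower, against 1.26% of all genes called higher and 3.49% lower in that fit. Summed astrocyte markers were lower in R6/2 (1290 to 1759 CPM) than in NT cortex (2199 to 3462 CPM), as were those of cortical excitatory neurons (191 to 251 against 390 to 584 CPM), and their part in the members' levels was not tested.

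Rpl5 (ENSMUSG00000058558, mm10 chr5:107900502-107909005, plus strand) encodes the large-subunit protein that carries 5S ribosomal RNA into the ribosome and, outside it, binds Mdm2. Its level was 276, 394, 273 and 290 CPM in Cortex NT 1 to 4 and 637, 467, 476 and 461 CPM in Cortex R6/2 1 to 4. All 4 R6/2 samples lay above all 4 NT samples, R6/2 1 being the highest. The log2 fold change was 0.74 ± 0.20 (SE) with an adjusted p of 0.046 (edgeR), close to the threshold. The call was lost when any of Cortex NT 3, Cortex NT 4 or the 4 R6/2 samples was left out (adjusted p 0.075 to 0.16, edgeR). It was also lost when reads of a single-exon copy of Rpl5, Gm15500, were added (0.054, edgeR). The same held with incomplete isoform matches left out and in a fit of all 16 samples. Levels of Rpl5 sum all its isoforms, and the most read complete isoform was a retained-intron form described further on.

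With Rpl5, all R6/2 samples were above all NT samples in the cortex in 4 of the 78 members tested and below them in none, against 3.61% of all 6121 genes above and 6.44% below, so the members' share above was near that of all genes. The 3 others had no adjusted p under 0.05. Rpl22, an RNA-binding large-subunit protein with a paralogue outside the rule (Rpl22l1), had 170, 114, 141 and 124 CPM in NT 1 to 4 and 209, 214, 190 and 203 CPM in R6/2 1 to 4 (log2 fold change 0.59, adjusted p 0.080, edgeR). Rpl35a, another large-subunit gene, had 27.0, 21.5, 24.4 and 15.5 CPM in NT and 53.1, 38.7, 38.8 and 32.3 CPM in R6/2 samples (0.95, adjusted p 0.10, edgeR). Its levels rest on 5 to 29 reads in a cortical sample. Single-exon copies of Rpl35a, described further on, held 92.7% of the reads on it and its copies over the 16 samples. Rpl39, which encodes one of the smallest ribosomal proteins, at the exit of the peptide tunnel, had 343, 289, 210 and 255 CPM in NT and 494, 426, 368 and 383 CPM in R6/2 samples (0.62, adjusted p 0.10, edgeR). These were named after their values were seen, and each misses the threshold.

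On the other side, the 3 members with a negative log2 fold change and the smallest p were Rpl21 (-0.75, adjusted p 0.23, edgeR), Rps14 (-0.37, 0.52) and Rps4l (-0.51, 0.55). Rps14, which encodes a protein of the small subunit's platform, had 874, 760, 434 and 443 CPM in Cortex NT 1 to 4 and 731, 448, 345 and 394 CPM in Cortex R6/2 1 to 4, so that the groups overlapped. For Rpl21 the log2 fold change became 0.19 once reads of its single-exon copies were added.

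In the striatum, with the number of runs in the model, none of the 79 members tested was called in either direction (edgeR). Of all genes tested, 4.34% were called, 0.496% higher and 3.84% lower. An unadjusted p under 0.05 was found in 3 members and in 1353 of all 7658 genes tested (edgeR). DESeq2 also called none. The median log2 fold change of R6/2 against NT was -0.06 over members and -0.002 over all genes, with 26 members above 0. Over the 8 samples, no member had every R6/2 sample above or below every NT sample, against 1.82% of all genes above and 4.28% below. Small-subunit genes had a median of -0.06 and large-subunit genes of -0.08. The median was -0.22 in the samples of 1 run alone and 0.16 in those of 2 runs alone, so the sign differed with the samples used.

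Rps14 came closest to the threshold, with a log2 fold change of -0.72 ± 0.21 (SE) and an adjusted p of 0.078 (edgeR). Its level was 470 and 582 CPM in Striatum NT 1 and 2 against 326 and 270 CPM in R6/2 2 and 3, all of 2 runs. At 1 run it was 1280 and 2147 CPM in Striatum NT 3 and 4 and 1361 and 908 CPM in R6/2 1 and 4. R6/2 samples were below NT samples at 2 runs and overlapped with them at 1 run. Without Striatum NT 3 the adjusted p was 0.047 (edgeR).

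Rpl10 and Rpl5 had the smallest p among members with a positive difference. Rpl10, an X-linked large-subunit gene whose protein is added at a late step of subunit assembly, had 17.7 and 11.7 CPM in NT and 28.0 and 25.4 CPM in R6/2 striatum at 2 runs, and 59.8 and 82.8 against 82.9 and 91.9 CPM at 1 run (log2 fold change 0.58, adjusted p 0.19, edgeR). Within each number of runs, both R6/2 values lay above both NT values, though at 1 run the nearest, 82.8 and 82.9 CPM, were almost equal. These levels rest on 14 to 57 reads of Rpl10 in a striatal sample. Its single-exon copies, described further on, held 96.1% of the reads on Rpl10 and copies over the 16 samples. Rpl5 had 240 and 178 CPM in NT and 369 and 340 CPM in R6/2 striatum at 2 runs, and 646 and 1057 against 945 and 957 CPM at 1 run (0.46, adjusted p 0.26, edgeR). Without Striatum NT 4 its adjusted p was 0.025 (edgeR). The remaining members named by their p, Rpl7 (0.24), Rps19 (-0.41), a small-subunit gene mutated in Diamond-Blackfan anaemia, and Rpl35 (-0.45), had adjusted p values of 0.33 to 0.56 (edgeR).

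No member differed in its genotype effect between the regions by the test of the difference itself, with 0 of 79 passing (edgeR). Of all genes, 0.0406% were called, 0.0271% higher and 0.0135% lower. An unadjusted p under 0.05 was found in 3 members and in 429 of all 7390 genes tested (edgeR). DESeq2 also called no member. The difference, striatum minus cortex, had a median of -0.39 on the log2 scale over members and of -0.28 over other genes under 1000 nt. With the correction for length the members' median was -0.08. The fit took cortical and striatal samples as independent of each other, which the labels leave undecided; in the copies described further on, same-numbered samples of both regions were alike.

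**Figure D2:**
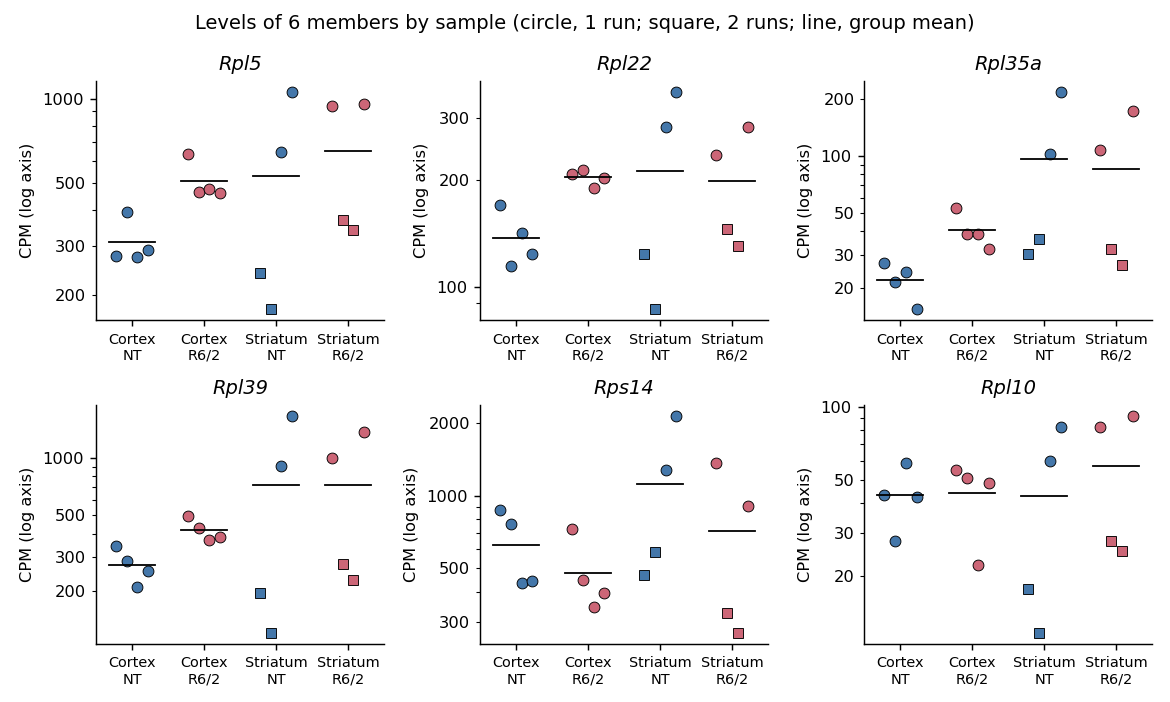
Level (CPM, log axis) of Rpl5, Rpl22, Rpl35a, Rpl39, Rps14 and Rpl10 in each sample by group, with circles for samples of 1 run, squares for samples of 2 runs and a line at the group mean. In the cortex the R6/2 points of Rpl5, Rpl22, Rpl35a and Rpl39 lie above all NT points, and in the striatum the squares lie below the circles for every gene drawn.

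The largest movement of these genes followed the number of runs. Of 79 members tested, 73 were lower and 1, Rps2, was higher in striatal samples of 2 runs than of 1 run at an adjusted p under 0.05, against 30.4% of all genes called, 19.1% lower and 11.2% higher (edgeR, genotype in the model). The median log2 difference was -1.98 over members and 0.07 over all genes, and other genes under 1000 nt had a median of -1.55. In 71 of the 79 members every sample of 2 runs lay below every sample of 1 run, and in 1 above, against 14.7% of all genes below and 18.8% above. A correction for gene length left 26 members lower and 1 higher, with a median of -0.36, against 7.77% of all genes lower and 4.34% higher under that correction.

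The 3 called members with the largest falls were Rpl26 (-4.10 ± 1.29, SE), Rps29 (-2.88 ± 0.26) and Rps21 (-2.85 ± 0.30), with adjusted p of 0.029, 2.1e-05 and 2.6e-05 (edgeR). Rps29, a small zinc-binding protein of the small subunit, had 335 and 269 CPM in Striatum NT 1 and 2 and 402 and 294 CPM in R6/2 2 and 3, at 2 runs. It had 1556 and 3296 CPM in NT 3 and 4 and 1691 and 2006 CPM in R6/2 1 and 4, at 1 run. The 2-run values lay within the range of the cortex (234 to 566 CPM) and far below every 1-run value. For Rpl26 the call was lost with the correction for length (adjusted p 0.42) and without any of Striatum NT 4, R6/2 2, R6/2 3 or R6/2 4 (0.060 to 0.10, edgeR). Rpl26 had 295 and 238 CPM in NT and 13.5 and 7.11 CPM in R6/2 samples at 2 runs. At 1 run it had 37.8 and 1315 against 1794 and 1860 CPM. Its reads are divided with single-exon copies, described further on, and -4.10 is the difference of the spliced gene alone. At the other end Rpl4, the member with most reads and a mean length of 1550 nt, moved by -0.10 ± 0.16 (adjusted p 0.65, edgeR). Rpl4 had 2603 to 3282 CPM at 2 runs and 2513 to 2966 CPM at 1 run, and the 2 sets overlapped. Rplp0, whose protein anchors the stalk of the large subunit, moved by -0.37 (adjusted p 0.10), while its short partners Rplp1 and Rplp2 fell by 2.31 and 2.22 (2.6e-05 and 2.1e-05, edgeR).

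Across the 79 members, the rank correlation of length with the log2 difference was 0.50 (Spearman), and across 7579 other genes it was 0.56. These are genes measured in the same 8 libraries and not replicates. Mean isoform length, mitochondrial share and member share moved together with the number of runs, and their parts in the difference cannot be told apart.

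**Figure D3:**
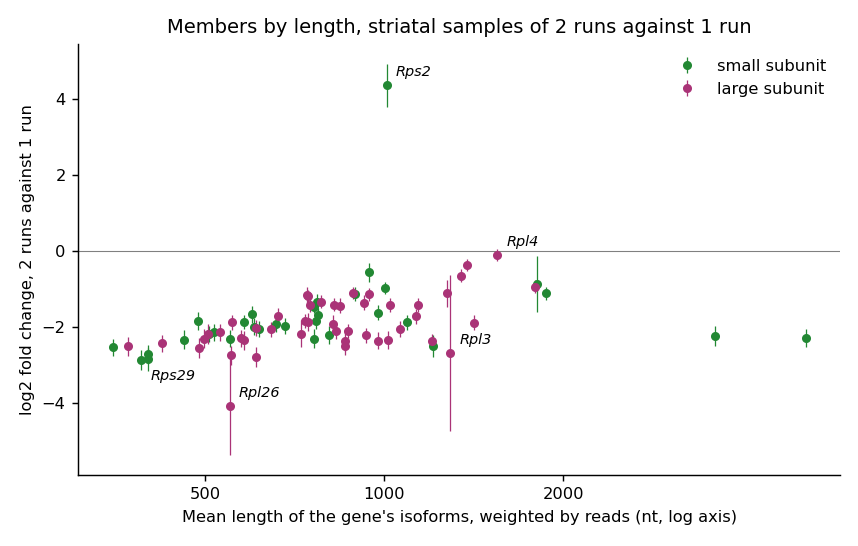
Log2 fold change of 2 runs against 1 run in the striatum (vertical axis, bars are SE) against the read-weighted mean isoform length (nt, log axis) for 79 members, coloured by subunit. Members under 1000 nt have a median of -2.07, Rpl4 lies near 0, and Rps2 stands alone above 0 at 4.37.

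Other gene groups placed these values. The 5 ribosomal genes outside the rule that were tested had a median of -1.97 (4 lower) and nuclear genes of oxidative phosphorylation, many of them short too, a median of -1.76 (59 of 72 lower). Mitochondrial ribosomal protein genes had a median of -0.81 (52 of 78 lower), ribosome assembly factors 0.05 (5 of 27 lower, 2 higher), and elongation factors with other oligopyrimidine messenger RNAs -0.24 (6 of 15 lower, 2 higher).

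In samples of 1 run, most ribosomal protein genes were higher in the striatum than in the cortex. Of 79 members tested, 68 were higher and 1, Rps2, lower, against 41% of all genes called, 18.8% higher and 22.2% lower (edgeR, genotype in the model, samples of both regions taken as independent). The median log2 difference was 1.33 over members, -0.12 over all genes and 0.95 over other genes under 1000 nt. With the correction for length, 38 members were higher and 2 lower, against 16.9% of all genes higher and 16.8% lower. With all 8 striatal samples 19 were higher and none lower, against 14.4% and 15% of all genes. Member reads took 7.60% to 10.9% of gene reads in striatal samples of 1 run, against 3.49% to 5.39% in the cortex. In striatal samples of 2 runs they took 3.16% to 3.63%, so the share was above every cortical sample at 1 run only. Mitochondrial genes took 1.42% to 3.28% in striatal samples of 1 run and 0.33% to 0.58% in the cortex. The part of such differences between samples in the fold changes was not tested. The largest called increases were those of 3 small-subunit genes with zinc-binding or very short proteins, Rps29 (2.32), Rps27 (2.24) and Rps28 (2.22; adjusted p 1.6e-08 to 4.7e-08, edgeR). Rpl4 did not pass (-0.11, adjusted p 0.60). Oligodendrocyte markers summed to 3688 to 7671 CPM in the cortex and 13201 to 31475 CPM in the striatum, a difference of region whose part in the members' levels was not tested.

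**Figure D4:**
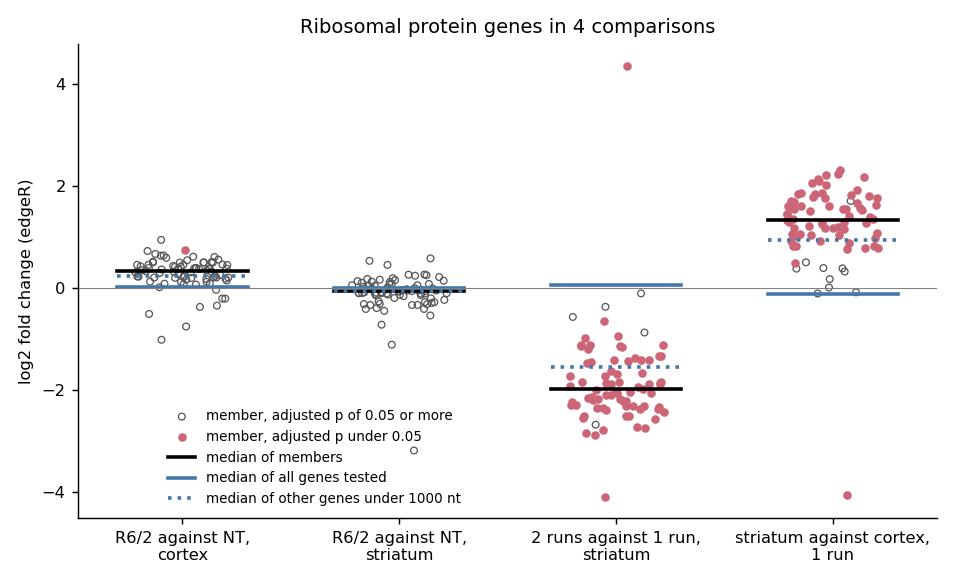
Log2 fold change of each ribosomal protein gene (points, filled where the adjusted p is under 0.05) in 4 comparisons, with the median of members (black), of all genes tested (blue) and of other genes under 1000 nt (dotted blue). Members spread around 0.34 and -0.06 in the R6/2 against NT comparisons, around -1.98 for the runs and around 1.33 for the regions, with Rps2 on the opposite side of both of the latter.

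The exceptions Rps2, Rpl26 and Rpl3 led to the single-exon copies. Matching GENCODE M21 transcripts by blastn found 118 genes outside the rule that were read almost only as 1 exon and matched a member's transcript at 85% identity or more, 110 of them annotated as pseudogenes. They belonged to 59 members and held 133822 reads, which is 22.2% of the reads on members and copies together and 13.2% to 26.6% per sample. In 10 members the copies held more reads than the member, among them Rpl10, Rpl21 and Rpl35a, whose levels above are therefore those of the smaller part. Between such sequences the placing of a read rests on few bases, so the division of reads between a member and its copy is uncertain.

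For 4 members the share of reads placed on the spliced gene ran from under 3% in some samples to over 95% in others. They were Rpl3, which encodes a protein at the peptidyl transferase centre, Rpl26, a protein at the tunnel exit, Rps2, a small-subunit protein at the entry of messenger RNA, and Rpsa, also known as the laminin receptor. For the 55 other members with copies the share differed between samples by 30.1 points (Rpl23a) or less, and the median range over all 59 was 8.55 points.

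Stretches around some of the bases in which 3 of these genes differ from their main copy are shown to give the scale of the difference. Over the compared length Rpl3 and its copy Rpl3-ps1 on chromosome X differed at 2 of 1210 bases, Rpl26 and Gm15772 at 2 of 438, Rpsa and Rpsa-ps10 at 6 of 885 and Rps2 and Rps2-ps10 at 5 of 879, all within the coding sequence of the member. Each pair below holds 21 bases of the GENCODE M21 transcripts in the sense of the gene (mm10), with the differing base in capitals and positions counted from 1 at the 5′ end of the member's main transcript (C137A and T866C in Rpl3, T335C in Rpl26, C200A in Rpsa).
Rpl3, C137A, chr15:80082519-80082539, minus strand: tcctgcctcgCaagcgcagca
Rpl3-ps1, chrX:13202618-13202638, plus strand: tcctgcctcgAaagcgcagca
Rpl3, T866C, chr15:80079743-80079763, minus strand: ctgcccgtgtTgccttctctg
Rpl3-ps1, chrX:13203347-13203367, plus strand: ctgcccgtgtCgccttctctg
Rpl26, T335C, chr11:68903288-68903308, plus strand: caaccgtccaTgtgggcatcc
Gm15772, chr5:3236708-3236728, plus strand: caaccgtccaCgtgggcatcc
Rpsa, C200A, chr9:120128504-120128524, plus strand: tgacgtcctgCagatgaagga
Rpsa-ps10, chr3:150073508-150073528, minus strand: tgacgtcctgAagatgaagga
The members are spliced from 10 (Rpl3), 4 (Rpl26), 6 (Rps2) and 7 (Rpsa) exons, and each copy is 1 exon.

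Of the reads on Rpl3 and its copy, the share on Rpl3 was 0.8%, 99.9%, 57.6% and 56.0% in Cortex NT 1 to 4 and 0.9%, 99.4%, 52.6% and 53.8% in Striatum NT 1 to 4. It was 0.7%, 0.7%, 0.8% and 99.8% in Cortex R6/2 1 to 4 and 1.3%, 0.8%, 0.9% and 97.0% in Striatum R6/2 1 to 4. The cortical and the striatal sample of a number were alike, the largest difference being 4.96 points, while samples of 1 group ranged over the whole scale. The level of Rpl3 alone ran from 32.6 to 7946 CPM, whereas the sum of both ran from 3963 to 7620 CPM, here of gene reads without TMM scaling.

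For Rps2 the share on the gene was over 93% in NT 1 and R6/2 3, between 17.7% and 22.1% in NT 2 and R6/2 2, and under 1% in the other 4 numbers, in both regions. In the striatum the samples of 2 runs are NT 1, NT 2, R6/2 2 and R6/2 3, so there a share of Rps2 above 1% was found in samples of 2 runs and not in those of 1 run. Rps2 had 1016, 128, 412 and 897 CPM in these 4 samples and 25.2, 14.6, 26.2 and 35.4 CPM in the samples of 1 run. With reads of the copies added, its log2 difference of 2 runs against 1 run went from 4.37 to -2.16 and that of striatum against cortex from -4.06 to 0.83. The sum of both fell in with the other members, at 686 to 1964 CPM (unscaled) at 2 runs and 3527 to 4699 CPM at 1 run.

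Rpl26 held 98.3% to 99.1% of the reads in R6/2 1 and R6/2 4, 49.4% to 56.9% in NT 1, NT 2 and NT 4, and 0.66% to 3.2% in NT 3, R6/2 2 and R6/2 3. Rpsa held 2.0% to 8.1% in NT 2 and NT 3 and over 99% in the other 6 numbers. In both genes the cortical and the striatal sample of each number again lay within 6.68 points of each other. The mice are of a mixed B6CBA strain by their label, and whether the samples differ in the sequence of these genes was not tested. The levels and fold changes of these 4 genes given above are those of the spliced gene alone.

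**Figure D5:**
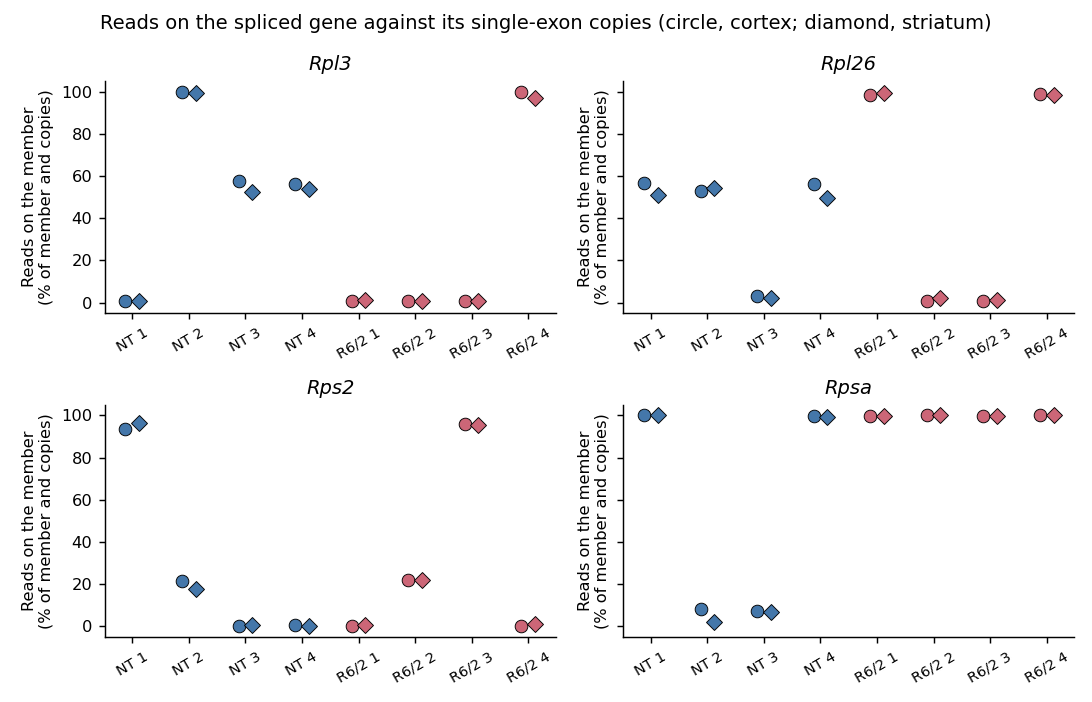
Share of reads placed on the spliced gene among reads on it and its single-exon copies (percent, vertical axis) for Rpl3, Rpl26, Rps2 and Rpsa, by genotype and sample number, with circles for cortex and diamonds for striatum. Circle and diamond of each number nearly coincide (within 6.68 points), while numbers of the same genotype lie anywhere from under 1% to over 95%.

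Ribosomal protein genes were read mostly as complete annotated isoforms. TALON, the program that made the counts, assigns each read to a known isoform, to an incomplete match of one (ISM), or to a new combination of known (NIC) or partly new (NNC) splice sites. Known isoforms took 90.9% ± 0.73 (SD, n = 4) of member reads in Cortex NT, 91.0% in Cortex R6/2, 91.7% in Striatum NT and 91.3% in Striatum R6/2, against 73.2% to 77.0% for other genes. In the striatum the share differed with the runs, at 90.2% in NT and 90.4% in R6/2 samples of 1 run and 93.2% and 92.2% in those of 2 runs, while ISM reads were 6.58% to 7.97% in single samples of 1 run and 4.44% to 5.62% in those of 2 runs. ISM reads were 6.22% to 7.16% of member reads over the 4 groups, against 15.3% to 19.3% for other genes, and NIC reads 0.47% to 0.51% against 4.26% to 4.71%. The genotype groups differed by less than the spread between samples in the cortex. Among reads of known isoforms, 97.6% to 98.3% were on protein-coding isoforms, and the group means of retained-intron isoforms were 1.02% to 1.39%.

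Of 78 members with at least 200 complete reads, 61 had 90% or more of these reads on a single isoform, and 41 had 95% or more, with a median of 95.5%. The leading isoform was protein coding in 74 and known in 77. The lowest leading shares were those of Rpl21 (41.9%), Rpl10 (47.9%), Rpl35a (55.2%), Rpl5 (58.0%) and Rpl30 (65.4%), all of the large subunit. In Rpl5 the leading isoform was a retained-intron form of 3 exons (ENSMUST00000140659, 1024 nt), and the protein-coding form of 8 exons (ENSMUST00000082223, 2045 nt) followed. The retained-intron form made up 77.0%, 81.6%, 61.8% and 70.4% of Rpl5 complete reads in striatal samples of 1 run and 50.8%, 23.4%, 55.1% and 50.5% in those of 2 runs. It was higher in each of the former, where the mean isoform length of other genes was lower, than in each of the latter. In the cortex it was 50.9% in NT and 54.7% in R6/2 samples. Usage of Rpl5 isoforms in the cortex had an unadjusted p of 0.66 in the fit across genes (diffSpliceDGE in edgeR).

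Rps24, a small-subunit gene known for alternative splicing of its last exons, was the one of these 78 members led by an unannotated isoform. Known isoforms took 2.27% of its 5694 reads and NNC isoforms 63.9%. An NNC isoform of 6 exons and 857 nt held 85.3% of its complete reads, and a NIC isoform of 7 exons and 565 nt followed. The NIC form made up 10.6%, 6.62%, 9.84% and 14% of complete reads in Cortex NT 1 to 4 and 6.98%, 6.10%, 5.16% and 7.64% in Cortex R6/2 1 to 4. In the striatum it was 11.2%, 10.9%, 10.4% and 8.72% in NT and 5.51%, 5.79%, 7.38% and 7.49% in R6/2 samples. R6/2 values were below all NT values in the striatum and overlapped with them in the cortex, and the usage of Rps24 isoforms did not pass the test in either region (adjusted p of 1, diffSpliceDGE in edgeR).

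Among the same 78 members, the other classes gathered in a few. ISM reads made up 27.0% of the reads of Rps24. NIC reads were most frequent in Rpl10 (8.27%), Rps24 (6.87%) and Rpl30 (3.11%), and NNC reads, after Rps24, in Rpl30 (6.22%) and Rplp2 (5.63%). Reads of the genomic class, which do not follow an isoform, were most frequent in Rps27a (3.50%), made as a fusion with ubiquitin, Rpl22 (2.97%) and Rpl21 (1.98%).

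Isoform usage of ribosomal protein genes did not differ between R6/2 and NT samples past the threshold in either region. In the cortex 0 of 60 members tested were called, and 2 had an unadjusted p under 0.05, against 0.36% of all 3058 genes called and 5.56% with an unadjusted p under 0.05 (diffSpliceDGE in edgeR, Simes p, adjusted over all genes). In the striatum 0 of 72 were called, and 4 had an unadjusted p under 0.05, against 0.451% of 4437 genes called and 6.74% with an unadjusted p under 0.05.

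Rpl31, which encodes a large-subunit protein at the tunnel exit, had the smallest p of all members, 0.00095 in the striatum (adjusted p 0.12, diffSpliceDGE in edgeR). Its 4-exon protein-coding isoform ENSMUST00000179954 made up 15.7%, 25.8%, 13.8% and 15.8% of complete reads in Striatum NT 1 to 4 and 6.69%, 4.03%, 9.33% and 9.17% in Striatum R6/2 1 to 4. The isoform was lower in every R6/2 than in every NT sample of the striatum. In the cortex it was 17.2%, 16%, 18.2% and 11.6% in NT and 7.35%, 10.0%, 8.73% and 11.2% in R6/2 samples, with an adjusted p of 1 (diffSpliceDGE in edgeR). The cortical values did not overlap, though the nearest, 11.6% in NT 4 and 11.2% in R6/2 4, were almost equal. These shares rest on 6 to 50 reads of the isoform in a sample. Rpl31 was named for its small p, so the separation adds no support to it. Its unadjusted p in the striatum was 0.90 without the runs term (diffSpliceDGE in edgeR). It was 0.035 without Striatum R6/2 2 and 0.00063 to 0.0098 without any other single striatal sample (diffSpliceDGE in edgeR).

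Rpl13a, a large-subunit gene, had the smallest p in the cortex (0.016, adjusted p 0.61, diffSpliceDGE in edgeR). Its processed-transcript isoform ENSMUST00000209626 made up 7.08%, 8.45%, 6.34% and 6.88% of complete reads in Cortex NT 1 to 4 and 4.85%, 2.94%, 3.16% and 4.09% in Cortex R6/2 1 to 4, and 3.70% and 2.57% on average in Striatum NT and R6/2. The cortical groups did not overlap, but Rpl13a was named for its small p, so the separation adds no support to it. Rpl37 and Rpl37a in the cortex, and Rpl22 and Rps14 in the striatum, were next by p, with adjusted p of 0.41 or more (diffSpliceDGE in edgeR).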

How the data were processed

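Iso-seq counts were deposited per sample, as whole-number counts of reads per isoform that the authors made with TALON 5 and deposited without a filter on rare isoforms. Per the study's methods, reads were aligned with minimap2 (2.17-r941) to mm10 with Ensembl 87 annotation, after exonuclease treatment and PCR, and the labels name polyA RNA as the input. No depth normalization had been applied. No molecular identifiers are described, so PCR copies count as reads.

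Here, 20 count tables gave 16 samples, 4 of them summed from 2 runs. Gene counts were sums of known, ISM, NIC and NNC isoforms. Levels are CPM with TMM scaling over 16 samples. Tests used edgeR 4.0.16 (R 4.3.3; TMM, filterByExpr, glmQLFit and glmQLFTest, Benjamini-Hochberg over all genes, threshold 0.05), adding a runs term for striatal samples, and diffSpliceDGE for isoforms with at least 10 reads; p-values measure the spread between these samples. DESeq2 1.42.0, other filters, normalizations and read classes, a per-sample offset for gene length, and fits without each replicate were alternatives. Copies were genes with at least 10 reads, read to at least 80% on known single-exon isoforms, matched by blastn 2.17.0 over at least 70% of the shorter sequence; adding them was chosen after seeing the data. Named members were those with most reads, the called members with the largest change or otherwise the smallest p in each comparison, extremes of leading share and class, and a short list of stalk and paralogue genes. Members, lists and rules were chosen with earlier results of these data known. Simulated 2-fold changes (log2 of 1) in 100 genes were recovered at 78.4% in the cortical design (6121 genes), 54.4% in the striatal (7658 genes) and 20.4% for the difference between regions (7390 genes). Results for a few genes are not reported here.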

Additional observations from a re-analysis of the deposited data

Results flagged for a closer look

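In 88 groups of 4 samples checked (member share, known-isoform share, copy share and levels of the members whose values are printed), 9 held a sample far from the other 3, where chance gives about 5%. The copy share had a low value in Striatum NT, at 13.2%. Rpl5 had a high value of 394 CPM in Cortex NT and of 637 CPM in Cortex R6/2. Rps21 (549 CPM) and Rpl41 (2039 CPM) were high in a single Cortex NT sample, and Rps24 (637 CPM) in a single Cortex R6/2 sample. Rpl3 reached 5129 CPM in 1 Cortex R6/2 and 5033 CPM in 1 Striatum R6/2 sample, both of number 4, and Rps2 reached 1016 CPM in 1 Striatum NT sample. In reads outside the main measurement, 133822 reads lay on single-exon copies of members and 908 reads of members were of the genomic class.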

How the results depend on the processing

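In the cortex, no filter on low counts gave 2 members called higher and 1 lower in R6/2, against 0.341% of all genes higher. The replicate block gave 4 members called higher and none lower, against 0.588% of all genes higher. Under each of these settings, more of all genes were called lower than higher. Leaving out each sample gave 0 to 18 members higher, against 0.141% to 1.26% of all genes. In the striatum, no filter gave 1 member called higher and 3 called lower, against 0.769% and 2.26% of all genes. For 2 runs against 1 run, 26 members were called lower with the length offset, against 7.77% of all genes. With copy reads added and the length offset 35 were called lower, against 7.89% of all genes. Striatum against cortex gave 38 higher and 2 lower with the length offset, against 16.9% and 16.8% of all genes. With all 8 striatal samples it gave 19 higher, against 14.4% of all genes. The interaction gave 2 lower with no filter, against 0.0231% of all genes. Rpl21 in the cortex became positive with copy reads added (0.19, and 0.14 with the length offset). Rps2 became -2.16 and -1.21 for the runs and 0.83 for the regions under the same settings. The causes were not tested, apart from the copy reads, which those settings add.

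The mean member share was 5.20% (Cortex R6/2), 3.69% (Striatum NT, 2 runs) and 10.0% (Striatum R6/2, 1 run) without ISM isoforms, 2.88% and 2.83% (NT and R6/2 of 2 runs) from the first run only, and 8.10% (R6/2, 1 run) with the genomic class. The share of known isoforms in Striatum R6/2 of 2 runs was 93.1% from the first run and 92.1% with the genomic class.

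Deviations of same-numbered NT and R6/2 samples had correlations of 0.22, -0.06, -0.08 and 0.15 in the cortex and 0.18, -0.38, 0.01 and -0.21 in the striatum. With a single value per number and region, these cannot decide whether such samples share more than a number. The replicate block called 0 members in the striatum, against 0.0914% of all genes higher and 2.32% lower.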
